A study of Mus musculus with 43 samples.

Results

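The genes of sterol, fatty acid and surfactant lipid synthesis are described here in whole mouse lung after house dust mite (HDM), a common inhaled allergen, with and without an antibody to the cytokine IL-33. They are 31 genes of the 24475 Entrez gene IDs in the deposited count table, taken by symbol: 14 of cholesterol synthesis and sterol transport, 3 of sterol sensing, 11 of fatty acid synthesis and 3 of phosphatidylcholine synthesis. The groups were 15 libraries from lungs after 15 weeks of HDM with an anti-IL-33 antibody, 4 after 15 weeks of HDM with an isotype control antibody, 7 after 15 weeks of HDM alone, 10 after 4 weeks of HDM alone and 7 given saline. Every mouse, saline controls included, carried the Il33hu/hu genotype in a background labelled as C57BL/6NTac mixed with 129S6SvEvTac, and no age is stated. Since saline lungs have no time point in the labels, the length of the experiment and HDM cannot be told apart in a contrast with saline. Between 15 and 4 weeks of HDM, length of exposure and length of the experiment cannot be told apart either. The labels do not say that the libraries of a group came from separate animals, so p-values measure the spread between these samples, which may be technical.

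Cholesterol is made from acetyl-CoA through mevalonate, squalene and a chain of sterol intermediates, and fatty acids are made by carboxylation of acetyl-CoA, chain building by fatty acid synthase, elongation and desaturation. Both routes are switched on by the transcription factors SREBP-1 and SREBP-2, which Insig proteins hold back in the endoplasmic reticulum when sterol is plentiful. In the lung, type II alveolar cells use these routes to build surfactant, a film rich in dipalmitoyl phosphatidylcholine that is stored in lamellar bodies and lowers surface tension in the alveoli. Alveolar macrophages take up used surfactant and carry their own sterol load.

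Total counts per library ran from 4795214 to 12599467, and 15598 genes were tested, among them all 31 lipid genes. Levels are in CPM, each count scaled by the TMM-normalized size of its library, and log2 fold changes carry the standard error (SE) of an edgeR quasi-likelihood fit. A gene is said to rise or fall where its Benjamini-Hochberg (BH) adjusted p over all tested genes was under 0.05. Each label holds an identifying number, and these numbers form 2 blocks of 22 and 21 libraries, called number ranges 1 and 2. Their meaning is unknown here, and they entered the fit as a term. A pair of libraries stood apart from their groups: 15-week HDM replicate 1, with 6726 CPM of Fasn against 1499 to 3152 CPM in the other 6, and 4-week HDM replicate 3, with 34.99 CPM of Lpcat1 against 156 to 226 CPM in the other 9. A further library, anti-IL-33 replicate 7, had high levels of fat cell genes: the fat cell gene Adipoq stood at 155 CPM there against 0.741 to 9.17 CPM in the other 14, and the brown fat gene Ucp1 at 102 CPM against 0 to 0.627 CPM. In bulk lung, fewer cells of a type and less RNA per cell cannot be told apart.

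Type II alveolar markers were plentiful in every group. Sftpc, the surfactant protein C gene, had a median of 10825 CPM in anti-IL-33, 15354 CPM in isotype, 15830 CPM in 15-week HDM, 12270 CPM in 4-week HDM and 8382 CPM in saline libraries. Per kilobase of each gene's longest annotated transcript, Scd1, the stearoyl-CoA desaturase that makes oleate and palmitoleate, was the most abundant lipid gene in 15-week HDM lungs, with a median level of 1985 CPM per kb. Elovl1, an elongase of very long saturated chains, followed at 256 CPM per kb, then Fasn, fatty acid synthase, at 166 CPM per kb, and Scd2, a second desaturase, at 164 CPM per kb. The cholesterol branch was lower, with Hmgcs1, the HMG-CoA synthase of the first committed steps, at 48.8 CPM per kb and Hsd17b7 at 3.45 CPM per kb. Elovl6, the elongase of palmitate, was the least abundant at 1.80 CPM per kb. Scd1 and Scd2 are related genes on chromosome 19, as are Fads1 and Fads2, and the labels do not say how reads shared by related genes were counted.

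Promoter sequence was at hand for 24 of the 31 genes, as windows reaching from 250 bases before to 50 bases after a RefSeq transcription start (build GRCm38.p6). A search of both strands for the NF-Y box CCAAT, a partner site of SREBP, matched 19 of the 24 genes (79.2%), against 41.1% of 27025 genes with a window. It matched 10 of 10 cholesterol genes, 3 of 3 sterol sensing genes, 5 of 8 fatty acid genes and 1 of 3 phosphatidylcholine genes. The sterol response element TCACNCCAC, with any base at N, matched 2 of 24 genes (8.33%), against 1.44% of all genes. These were Hmgcs1 and Pcyt1a, which makes the CDP-choline for phosphatidylcholine synthesis. The E-box CACGTG, a site of SREBP-1 and of other factors, matched 4 of 24 genes (16.7%), against 8.09% of all genes. The 24 genes all passed the count filter, whereas the 27025 were not limited to genes tested here, so the shares do not compare like with like. No match overlapped a match of another motif among the 4 windows below, and a match here is a description of letters, not of binding. The windows shown are those of Hmgcs1, which holds a sterol response element, of Mvd and Fasn, which rose with HDM, and of the surfactant gene Lpcat1, which rose too and where none of the motifs was found. Capitals mark matches on either strand (CCAAT reads ATTGG on the other strand), 5′ to 3′ on the strand of the gene.
Hmgcs1 (chr13:119690101-119690400, plus strand): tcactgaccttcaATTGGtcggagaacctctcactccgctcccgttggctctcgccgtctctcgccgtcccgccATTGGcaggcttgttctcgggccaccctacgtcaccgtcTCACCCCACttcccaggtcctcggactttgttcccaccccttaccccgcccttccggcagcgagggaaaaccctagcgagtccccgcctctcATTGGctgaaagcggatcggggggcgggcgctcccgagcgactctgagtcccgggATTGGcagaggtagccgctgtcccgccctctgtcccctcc
Mvd (chr8:122443373-122443672, minus strand): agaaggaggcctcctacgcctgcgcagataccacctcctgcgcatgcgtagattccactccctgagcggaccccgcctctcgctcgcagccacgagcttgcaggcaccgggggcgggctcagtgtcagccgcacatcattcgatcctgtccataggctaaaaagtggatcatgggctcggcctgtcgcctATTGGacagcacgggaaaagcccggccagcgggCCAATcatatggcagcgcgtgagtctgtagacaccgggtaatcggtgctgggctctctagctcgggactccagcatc
Fasn (chr11:120824498-120824797, minus strand): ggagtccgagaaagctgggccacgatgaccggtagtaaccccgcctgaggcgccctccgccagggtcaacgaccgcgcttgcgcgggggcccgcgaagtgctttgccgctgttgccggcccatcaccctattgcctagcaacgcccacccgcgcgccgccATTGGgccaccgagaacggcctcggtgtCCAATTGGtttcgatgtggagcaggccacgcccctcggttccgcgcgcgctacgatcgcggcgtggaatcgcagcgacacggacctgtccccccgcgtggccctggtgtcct
Lpcat1 (chr13:73466981-73467280, plus strand): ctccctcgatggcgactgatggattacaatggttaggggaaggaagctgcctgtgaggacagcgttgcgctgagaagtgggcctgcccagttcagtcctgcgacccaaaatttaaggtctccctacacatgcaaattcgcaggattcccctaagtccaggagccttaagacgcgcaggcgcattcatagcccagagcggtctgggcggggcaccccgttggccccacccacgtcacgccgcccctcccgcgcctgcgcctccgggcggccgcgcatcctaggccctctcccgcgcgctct
In Hmgcs1 the sterol response element lies at bases -137 to -129 from the start, with NF-Y boxes at -237 to -233, -176 to -172, -45 to -41 and 11 to 15. Mvd holds NF-Y boxes at -60 to -56 and -27 to -23. In Fasn a box at -90 to -86 stands before an overlapping pair at -62 to -55, 1 on each strand.

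Prolonged allergen exposure was set against saline first. In fatty acid synthesis Fasn stood 5.11-fold, Scd1 4.43-fold, Me1 3.44-fold and Elovl1 2.20-fold higher in 15-week HDM than in saline lungs, and in cholesterol synthesis Dhcr7 stood 3.81-fold and Mvd 3.24-fold higher, while Acss2, which makes acetyl-CoA from acetate, stood at 0.437 of its saline level. Of the 31 genes, 16 rose and 2 fell (58.1%), where 59.2% of all tested genes were called, 31.2% higher and 28.1% lower. The share of genes called was thus close to that of all genes. The median log2 fold change was 0.39 over the 31 genes and 0.01 over all tested genes. For 10 of the 31 genes all HDM libraries lay above all saline libraries, as for 14.7% of all tested genes, and for 1 all lay below, as for 13.8%.

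Fasn (Entrez 14104, chromosome 11, 120805958 to 120825166, GRCm38.p6) ranged from 1499 to 6726 CPM with a median of 1671 CPM in 15-week HDM libraries, against 376 to 784 CPM with a median of 546 CPM in saline libraries. All 7 HDM libraries lay above every saline library. Its log2 fold change was 2.35 ± 0.30 (SE), with an edgeR adjusted p of 2.00e-08. Without 15-week HDM replicate 1, the library far above the rest, it was 1.93 (edgeR adjusted p = 1.18e-08). Scd1 (Entrez 20249, chromosome 19, 44394450 to 44407709) ranged from 7490 to 13558 CPM with a median of 9590 CPM, against 1662 to 3750 CPM with a median of 1914 CPM in saline. The 2 groups did not overlap, and the log2 fold change was 2.15 ± 0.22. Me1 (Entrez 17436, chromosome 9, 86581363 to 86695914), the cytosolic malic enzyme that makes NADPH for fatty acid synthesis, ranged from 255 to 450 CPM with a median of 284 CPM, against 78.2 to 102 CPM with a median of 92.1 CPM in saline. Again no library overlapped, with a log2 fold change of 1.78 ± 0.21.

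Elovl1 ranged from 398 to 1066 CPM with a median of 463 CPM in 15-week HDM libraries, against 215 to 305 CPM with a median of 245 CPM in saline libraries, without overlap (log2 1.14 ± 0.16). Acss2 (Entrez 60525, chromosome 2, 155518043 to 155562743) ran the other way: it ranged from 14.7 to 21.99 CPM with a median of 16.5 CPM, against 32.7 to 42.2 CPM with a median of 37.1 CPM in saline. Every HDM library was below every saline library, and the log2 fold change was -1.19 ± 0.24. The desaturases of polyunsaturated fatty acids rose, Fads2 by 0.68 ± 0.16 and Fads1 by 0.35 ± 0.10 on the log2 scale. Acaca, the acetyl-CoA carboxylase of the first committed step, had a log2 difference of 0.47 ± 0.23 (edgeR adjusted p = 0.0729), and Acly, ATP citrate lyase, one of 0.29 ± 0.14 (0.0737). Neither passed the threshold, and both passed it without anti-IL-33 replicate 7, at 0.53 (adjusted p = 0.00105) and 0.32 (0.0112). That library is in neither group and enters the fit through the number range term, the scaling and the shared spread, whose parts were not told apart. Scd2 and Elovl6 did not pass, at 0.13 ± 0.13 and -0.39 ± 0.54.

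**Figure D1:**
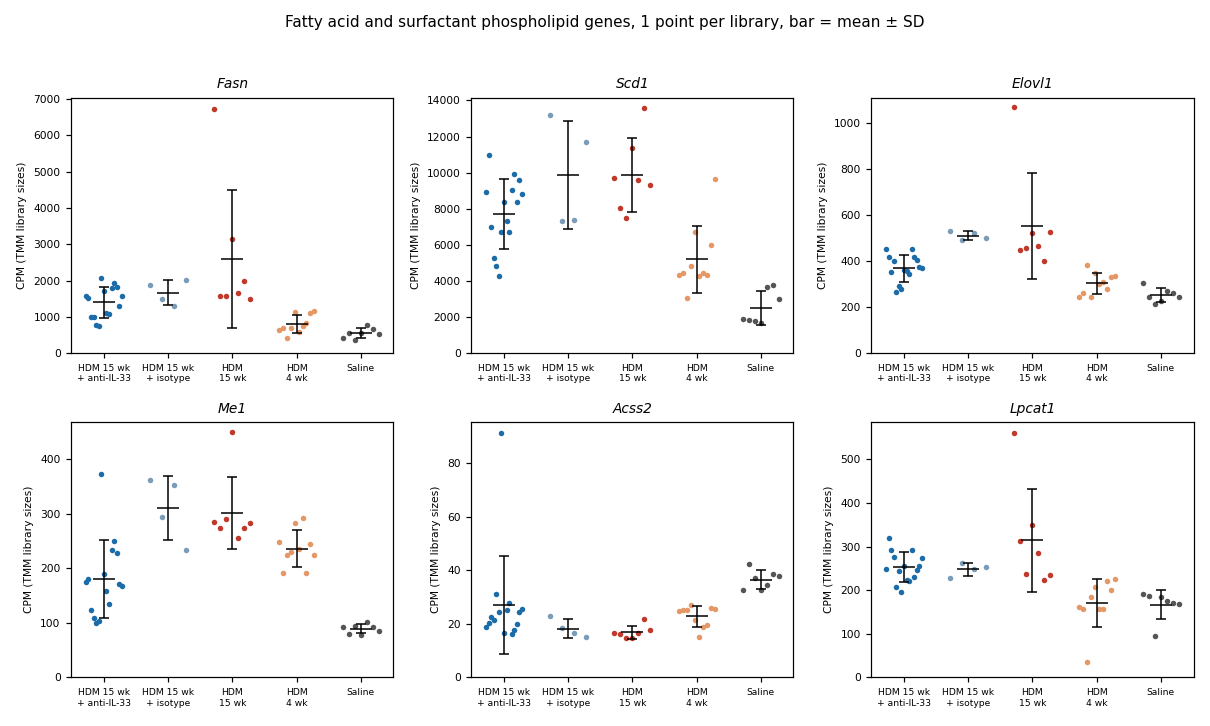
CPM of 6 genes of fatty acid and surfactant phospholipid synthesis in each library, by group from anti-IL-33 to saline, with the mean and SD as bars. Fasn, Scd1, Elovl1 and Me1 of all 7 HDM 15-week libraries lie above the saline libraries and Acss2 lies below them. The highest Fasn, Elovl1 and Lpcat1 points are 15-week HDM replicate 1, and the highest Acss2 point is anti-IL-33 replicate 7.

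In the cholesterol branch 7 of 14 genes rose after 15 weeks of HDM and none fell. Dhcr7 (Entrez 13360, chromosome 7, 143823167 to 143848410), the last enzyme of the pathway, which reduces 7-dehydrocholesterol, ranged from 49.1 to 114 CPM with a median of 54.5 CPM, against 15.2 to 21.2 CPM with a median of 16.2 CPM in saline libraries. Its log2 fold change was 1.93 ± 0.22, the largest of the branch, with no overlap between groups. Mvd (Entrez 192156, chromosome 8, 122433596 to 122443422), the decarboxylase that makes isopentenyl diphosphate, ranged from 24.8 to 58.4 CPM with a median of 28.8 CPM, against 8.51 to 11.2 CPM with a median of 9.71 CPM in saline (log2 1.70 ± 0.22). Fdps, farnesyl diphosphate synthase, ranged from 75.2 to 148 CPM with a median of 91.2 CPM, against 32.9 to 45.8 CPM with a median of 41.2 CPM in saline (log2 1.23 ± 0.19). For both genes the HDM and saline ranges were fully separate.

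Of the squalene steps, Fdft1, squalene synthase, rose by 0.63 ± 0.13 and Sqle, squalene epoxidase, by 0.65 ± 0.12 on the log2 scale, again without overlap between groups. Msmo1, the sterol C4 methyl oxidase, rose by 0.44 ± 0.14 and Nsdhl, the sterol C4 decarboxylase, by 0.40 ± 0.12, with overlap. The other 7 did not pass, among them Hmgcs1 at 0.25 ± 0.12 (edgeR adjusted p = 0.0652), Lss, lanosterol synthase, at 0.24 ± 0.16, Mvk, mevalonate kinase, at 0.21 ± 0.18 and Idi1, the isopentenyl diphosphate isomerase, at 0.03 ± 0.17. Hsd17b7, a sterol C3 ketoreductase, Sc5d, the sterol C5 desaturase, and Stard4, a cytosolic cholesterol carrier, had log2 differences of 0.19, -0.15 and -0.04. Hmgcs1 passed without 15-week HDM replicate 1, at 0.34 (adjusted p = 0.00465). In that library Idi1 (35.96 CPM) and Sc5d (20.4 CPM) were the lowest of the group while Mvd (58.4 CPM) and Dhcr7 (114 CPM) were the highest.

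**Figure D2:**
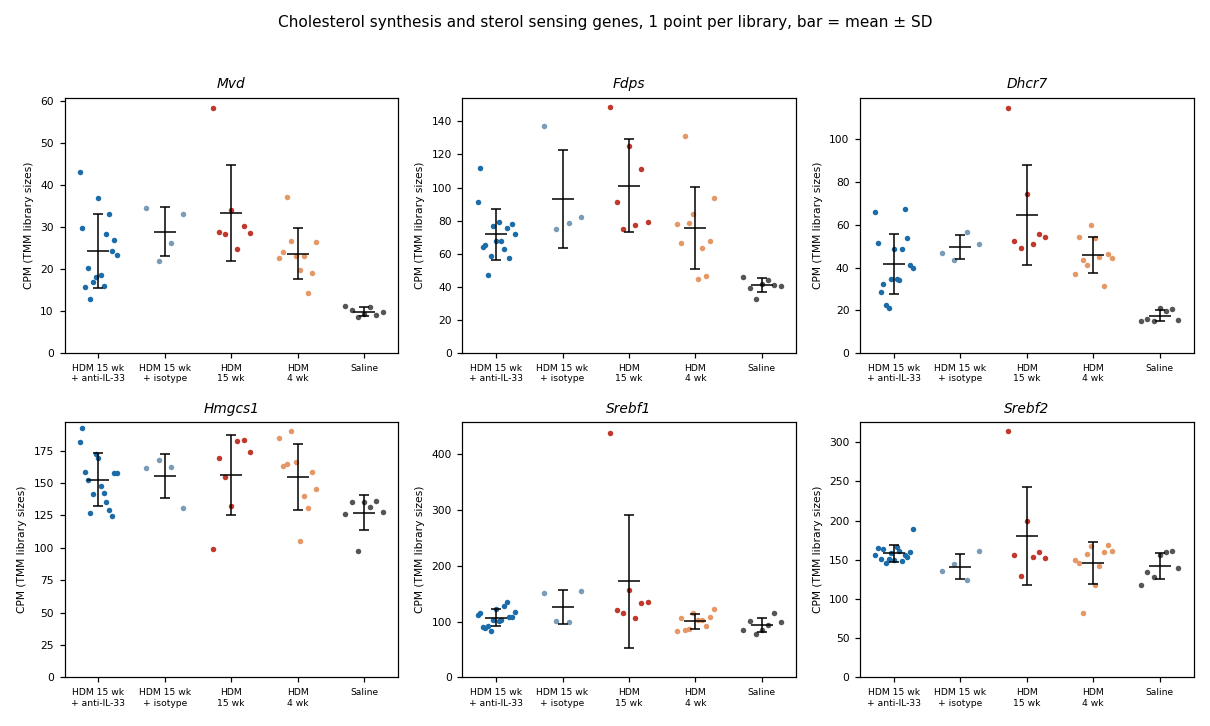
CPM of 4 cholesterol synthesis genes and the SREBP genes Srebf1 and Srebf2 in each library, by group from anti-IL-33 to saline, with the mean and SD as bars. Mvd, Fdps and Dhcr7 show saline libraries below all 15-week HDM libraries, while Hmgcs1 overlaps between groups and the high Srebf1 and Srebf2 points at 15 weeks are replicate 1.

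Of the sterol sensing genes, Srebf1, the SREBP-1 gene, ranged from 107 to 438 CPM with a median of 132 CPM in 15-week HDM libraries, against 78.1 to 114 CPM with a median of 94.6 CPM in saline libraries. It rose by 0.92 ± 0.20 on the log2 scale, and by 0.52 without replicate 1 (edgeR adjusted p = 0.000103). Srebf2, the SREBP-2 gene, rose by 0.39 ± 0.14, a call that was lost without replicate 1 (0.22, adjusted p = 0.0676). Insig1, which retains SREBP in the endoplasmic reticulum, had a median of 111 CPM in 15-week HDM and 104 CPM in saline libraries and did not pass (log2 0.08 ± 0.12).

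Among the phosphatidylcholine genes, Lpcat1 (Entrez 210992, chromosome 13, 73467231 to 73516420), the acyltransferase that adds palmitate to surfactant phosphatidylcholine, ranged from 223 to 560 CPM with a median of 285 CPM in 15-week HDM libraries, against 94.9 to 190 CPM with a median of 176 CPM in saline. The groups did not overlap, and the log2 fold change was 0.91 ± 0.22. Chka, choline kinase alpha, fell slightly, by 0.22 ± 0.08 on the log2 scale, and the call was lost without 15-week HDM replicate 1 (-0.17, edgeR adjusted p = 0.0703). Pcyt1a did not pass at 0.23 ± 0.11 (edgeR adjusted p = 0.0770), and passed without that library at 0.26 (adjusted p = 0.0452).

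Type II alveolar markers moved in the same direction as most of these genes. Of 11 markers 10 rose (90.9%), where 59.2% of all tested genes were called. Sftpd, the surfactant protein D gene, rose by 1.94 ± 0.22 and Sftpc by 0.78 ± 0.18 on the log2 scale. The 11 markers summed to 29047 to 58768 CPM in 15-week HDM libraries, with a median of 36575 CPM. In saline libraries they summed to 16552 to 24077 CPM, with a median of 19828 CPM. The summed alveolar macrophage markers, of which 3 of 8 rose and 2 fell (62.5%), had a median of 12848 CPM against 686 CPM in saline. That sum is mostly Chil3, which averaged 11667 CPM in 15-week HDM and 714 CPM in saline libraries, while the median log2 difference of the 8 markers was 0.37. The 8 markers of dividing cells all rose (100%), and 6 of 8 monocyte and interstitial macrophage markers rose and 1 fell (87.5%). Of 8 type I alveolar markers 7 fell and none rose (87.5%), and of 8 fibroblast markers 5 fell and 3 rose (100%). Of 8 club and goblet cell markers 2 rose and 3 fell (62.5%), with a median summed level of 6692 CPM against 18622 CPM in saline. The part of these cell types in the lipid gene changes was not tested. Within number ranges, all 18 called genes kept their sign in both. In range 1, with 5 HDM and 2 saline libraries, 9 of the 18 passed, and in range 2, with 2 and 5, 15 passed. Fasn had a log2 fold change of 2.63 in range 1 and 1.59 in range 2, Scd1 2.31 and 2.06, and Dhcr7 2.13 and 1.60.

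Genes around the pathway, from lists chosen with earlier results of these data known, gave this count for 15 weeks of HDM against saline, where 59.2% of all tested genes were called. Of 14 tested further genes of cholesterol synthesis and uptake, 9 rose and 3 fell (85.7%), among them Acat2, the cytosolic acetoacetyl-CoA thiolase, at 0.88 ± 0.11 and Cyp51, lanosterol demethylase, at 1.01 ± 0.14, while Lbr, a sterol C14 reductase of the inner nuclear membrane, fell by 0.59 ± 0.12. Of 20 further fatty acid genes 9 rose and 3 fell (60%): Slc25a1, the mitochondrial citrate carrier, rose by 1.37 ± 0.23, and Elovl5, an elongase of polyunsaturated chains, fell by 0.64 ± 0.10. Of 8 NADPH-supplying genes 6 rose and none fell (75%), among them Pgd, the 6-phosphogluconate dehydrogenase, at 1.32 ± 0.18 and G6pdx, glucose-6-phosphate dehydrogenase, at 0.75 ± 0.12. Of 27 glycerolipid and phospholipid genes 10 rose and 6 fell (59.3%, the share of all genes), Lpcat3, the acyltransferase for polyunsaturated chains, by 1.19 ± 0.14 upwards and Lpin2, a phosphatidate phosphatase, by 0.99 ± 0.13 downwards. Among 16 genes of fatty acid oxidation 4 rose and 4 fell (50%). Of 15 genes of sterol efflux and storage 7 rose and 1 fell (53.3%): Npc2, the lysosomal cholesterol carrier, rose by 1.73 ± 0.17 and Cyp27a1, the sterol 27-hydroxylase, fell by 1.21 ± 0.13. The median log2 difference was 0.49 in the further cholesterol list, 0.07 in the further fatty acid list, 0.79 in the NADPH list, 0.22 in the glycerolipid list, 0.65 in the storage list and -0.06 in the oxidation list.

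After 4 weeks of HDM, 6 of 14 cholesterol genes and 2 of 11 fatty acid genes had risen. Dhcr7, Mvd and Fdps rose, Me1 and Scd1 rose, and Acss2 fell. Of the 31 genes 8 rose and 2 fell (32.3%), where 56.8% of all tested genes were called, 29.3% higher and 27.5% lower. Both the share called and the share that rose (25.8%) were thus below those of all tested genes. The median log2 fold change was 0.08 over the 31 genes and 0.01 over all tested genes. This comparison and that of 15 weeks with saline share their saline libraries.

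Dhcr7 ranged from 31.3 to 59.7 CPM with a median of 44.7 CPM in 4-week HDM libraries, against 15.2 to 21.2 CPM with a median of 16.2 CPM in saline libraries (log2 1.39 ± 0.20). Mvd ranged from 14.5 to 37.3 CPM with a median of 23.1 CPM, against a median of 9.71 CPM in saline (1.23 ± 0.20). Me1 ranged from 191 to 293 CPM with a median of 232 CPM, against a median of 92.1 CPM in saline (1.41 ± 0.19). For these 3 genes all 10 HDM values exceeded the highest saline value, and for Acss2 all 10 were below (15.3 to 26.97 CPM, log2 -0.71 ± 0.21). Such separation held above saline for 3 of the 31 genes and 9.99% of all tested genes. Below saline it held for 1 of the 31 and 10% of all tested genes. Fdps rose by 0.85 ± 0.17, Fdft1 by 0.44 ± 0.12, Sqle by 0.36 ± 0.11 and Hmgcs1 by 0.26 ± 0.11 on the log2 scale. Scd1 ranged from 3041 to 9653 CPM with a median of 4447 CPM, against 1662 to 3750 CPM with a median of 1914 CPM in saline (log2 1.09 ± 0.19). In Scd1 9 of the 10 HDM libraries were above every saline library.

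Fasn did not pass at 4 weeks, with a range of 421 to 1158 CPM and a median of 719 CPM against a saline median of 546 CPM (log2 0.55 ± 0.25, edgeR adjusted p = 0.0590). Its lowest HDM value was that of replicate 3. Without the pair of libraries that stood apart Fasn passed at 0.62 (adjusted p = 0.00653), and without 15-week HDM replicate 1 alone at 0.57 (0.0132). Elovl1 did not pass either, at 0.26 ± 0.14 (adjusted p = 0.100), and passed without 15-week HDM replicate 1 at 0.28 (0.0154). Msmo1 and Sc5d also passed without that library, at 0.27 (0.0473) and -0.21 (0.0265). Lpcat1 had a median of 173 CPM in 4-week HDM libraries and 176 CPM in saline libraries (0.03 ± 0.20). Chka fell by 0.22 ± 0.07. All 10 called genes kept their sign within both number ranges. Of these, 5 passed in range 1, with 4 HDM and 2 saline libraries, and 9 in range 2, with 6 and 5. Of the 11 type II alveolar markers 7 rose and none fell (63.6%), where 56.8% of all tested genes were called, 29.3% higher. The 11 summed to a median of 30449 CPM against 19828 CPM in saline. All 8 markers of dividing cells rose (100%), and 6 of 8 monocyte and interstitial macrophage markers rose and 1 fell (87.5%). Of 8 type I markers 6 fell and 1 rose (87.5%), and of 8 fibroblast markers 5 fell and 3 rose (100%). Of 8 club and goblet cell markers 4 rose and 3 fell (87.5%). What part these cell types had was not tested.

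Of the surrounding lists at 4 weeks, 6 of 14 further cholesterol genes rose and 3 fell (64.3%), 5 of 20 further fatty acid genes rose and 4 fell (45%), and 5 of 8 NADPH genes rose and none fell (62.5%), where 56.8% of all tested genes were called. Acat2 and Cyp51 rose by 0.87 ± 0.10 and 0.76 ± 0.13 on the log2 scale, Tkt, the transketolase of the pentose phosphate route, by 0.68 ± 0.15, and Elovl5 fell by 0.55 ± 0.09. Of the glycerolipid list 10 of 27 rose and 7 fell (63%), with Lpin2 lower by 0.97 ± 0.11 and Ptpmt1, a phosphatase of cardiolipin synthesis, higher by 0.84 ± 0.13. Of the storage and efflux list 5 of 15 rose and 1 fell (40%). Of the oxidation list 2 of 16 rose and 3 fell (31.2%), with Cpt1a, the carnitine palmitoyltransferase that admits fatty acids to mitochondria, lower by 0.62 ± 0.12.

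**Figure D3:**
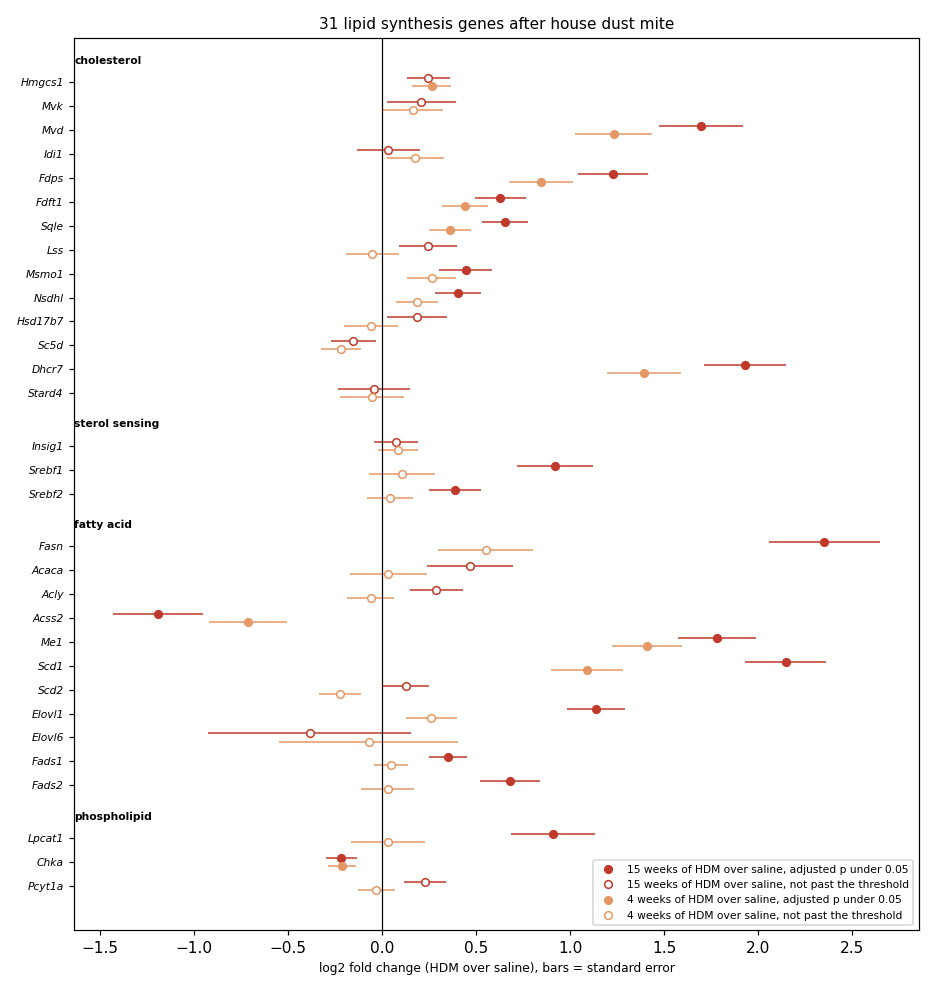
Log2 fold change of the 31 genes in HDM over saline lungs, by branch, with 15 weeks above 4 weeks in each row and SE as bars, and filled points for adjusted p under 0.05. Fasn (2.35 and 0.55) and Lpcat1 (0.91 and 0.03) lie far apart between the time points, Mvd (1.70 and 1.23) and Me1 (1.78 and 1.41) lie nearer each other, and Acss2 is the lowest in both.

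Set directly against each other, 15-week HDM lungs had more of the fatty acid branch than 4-week HDM lungs. Fasn stood 3.48-fold higher at 15 weeks, Scd1 2.08-fold, Lpcat1 1.84-fold, Elovl1 1.83-fold and Srebf1 1.76-fold. Of the 31 genes 11 rose and none fell (35.5%), where 21.4% of all tested genes were called, 12.3% higher and 9.08% lower. By branch these were 7 of 11 fatty acid genes, 2 of 3 sterol sensing genes, 1 of 3 phosphatidylcholine genes and 1 of 14 cholesterol genes. The median log2 fold change was 0.30 over the 31 genes and -0.01 over all tested genes.

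Fasn ranged from 1499 to 6726 CPM with a median of 1671 CPM in 15-week HDM libraries, against 421 to 1158 CPM with a median of 719 CPM in 4-week HDM libraries, without overlap (log2 1.80 ± 0.26, edgeR adjusted p = 1.34e-05). Without 15-week HDM replicate 1 the log2 fold change was 1.36 (adjusted p = 3.81e-05). Elovl1 ranged from 398 to 1066 CPM at 15 weeks, against 243 to 385 CPM at 4 weeks, also without overlap (0.87 ± 0.14). Separation of this kind held for 1.53% of all tested genes. Elovl1 was the gene of the 11 that passed under every alternative tried. Scd1 rose by 1.06 ± 0.19, with all 7 of the 15-week libraries above the 4-week median and 3 above every 4-week library. Lpcat1 ranged from 223 to 560 CPM at 15 weeks, against 34.99 to 226 CPM at 4 weeks (0.88 ± 0.20), and 6 of 7 libraries were above every 4-week library.

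Srebf1 rose by 0.82 ± 0.18 and Fads2 by 0.65 ± 0.14 on the log2 scale. The other 5 calls were each lost under 7 to 11 of 15 alternatives. Without 15-week HDM replicate 1 the calls of Dhcr7 (0.54 with it, 0.34 without, edgeR adjusted p = 0.165), Srebf2 (0.35 and 0.16, 0.235), Acly (0.35 and 0.31, 0.0878), Scd2 (0.35 and 0.30, 0.0607) and Fads1 (0.30 and 0.24, 0.0562) were lost, and Sqle (0.34, 0.0296) and Nsdhl (0.29, 0.0471) passed. Srebf1 kept its call without that library at 0.40 (adjusted p = 0.00500). Without anti-IL-33 replicate 7, which is in neither group, Acaca (0.49, adjusted p = 0.00450), Acss2 (-0.44, 0.00959) and Me1 (0.41, 0.0467) passed as well.

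The remaining 13 cholesterol genes did not pass between the time points, with log2 differences of 0.46 ± 0.19 for Mvd (edgeR adjusted p = 0.0773) and 0.38 ± 0.17 for Fdps (0.0906). Within number ranges all 11 called genes kept their sign. In range 1, with 5 libraries of 15 weeks and 4 of 4 weeks, 6 passed, and in range 2, with 2 and 6, only Elovl1 did. Lpcat1 had a log2 difference of 1.37 in range 1, which holds both libraries that stood apart, and 0.23 in range 2, and Srebf1 one of 1.05 and 0.31. Fasn had 2.27 and 0.90, and Scd1 1.14 and 0.96. Of the type II markers 5 of 11 rose (45.5%), where 21.4% of all tested genes were called. The 11 summed to a median of 36575 CPM at 15 weeks against 30449 CPM at 4 weeks. Sftpc did not pass (0.14 ± 0.16). Of 8 fibroblast markers 4 fell and 1 rose (62.5%). Of the type I, dividing cell, and club and goblet cell markers 2 of 8 fell in each list (25%). The part of these cells was not tested.

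Sterol storage and efflux genes were among the surrounding genes that moved between 4 and 15 weeks, with 9 of 15 higher and 1 lower (66.7%, against 21.4% of all genes). Soat1, which esterifies cholesterol for storage in droplets, averaged 346 CPM at 15 weeks and 212 CPM at 4 weeks (log2 0.74 ± 0.14). Abcg1, a sterol exporter of macrophages and type II cells, averaged 248.7 CPM at 15 weeks and 134 CPM at 4 weeks (0.86 ± 0.17). Lpl, lipoprotein lipase, rose by 1.12 ± 0.22, and Cyp27a1 fell by 0.69 ± 0.12. None of these 4 genes overlapped between the groups, as for 1.53% of all tested genes above and 0.474% below. They were named for their small p in this comparison, so their separation follows in part from that choice. In the NADPH list 3 of 8 rose (37.5%), G6pdx by 0.53 ± 0.11 and Pgd by 0.76 ± 0.16, and in the further fatty acid list 5 of 20 rose (25%), among them Scd3, another desaturase, at 1.15 ± 0.22.

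The next comparison asked what IL-33 blockade changed against the isotype antibody, both after 15 weeks of HDM. Of the 31 genes, Me1 fell and none rose (3.23%), where 6.71% of all tested genes were called, 3.58% higher and 3.14% lower. The median log2 fold change was 0.03 over the 31 genes and 0.01 over all tested genes.

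Me1 ranged from 99.5 to 374 CPM with a median of 171 CPM in the 15 anti-IL-33 libraries, against 362, 295, 353 and 234 CPM in the 4 isotype libraries. Of the anti-IL-33 libraries 13 were below every isotype library, and the highest was replicate 7, the one high in fat cell genes. The log2 fold change was -0.81 ± 0.20 (edgeR adjusted p = 0.0162), and -0.97 without replicate 7 (0.000717). The call was lost without isotype replicate 1 (-0.73, 0.106) and without isotype replicate 3 (-0.74, 0.107), and within number ranges Me1 stood at -0.998 (0.0680) in range 1 and -0.30 (0.831) in range 2, where there is 1 isotype library.

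Elovl1 ranged from 266 to 452 CPM with a median of 371 CPM in anti-IL-33 libraries, against 528, 489, 523 and 500 CPM in isotype libraries. All 15 anti-IL-33 libraries lay below all 4 isotype libraries, as they did for 0.904% of all tested genes, yet Elovl1 just missed the threshold (log2 -0.47 ± 0.15, edgeR adjusted p = 0.0512). It passed without 15-week HDM replicate 1, a library in neither group (-0.50, 0.00630). Scd1 ranged from 4302 to 10955 CPM with a median of 8353 CPM, against 13177, 7348, 7369 and 11681 CPM, and did not pass (-0.44 ± 0.21, 0.160). Fasn ranged from 757 to 2059 CPM with a median of 1525 CPM, against 1876, 1489, 1293 and 2021 CPM (-0.30 ± 0.28). The isotype libraries fall into a higher and a lower pair for both genes, replicates 1 and 4 above replicates 2 and 3.

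None of the other 27 genes passed. Dhcr7 had a log2 difference of -0.28 ± 0.21, Mvd of -0.23 ± 0.22, Fdps of -0.34 ± 0.19, Srebf1 of -0.25 ± 0.20 and Lpcat1 of 0.03 ± 0.22. Acss2 had one of 0.60 ± 0.26 (edgeR adjusted p = 0.123) and Elovl6 one of 0.85 ± 0.57. Srebf1 passed without the pair of libraries that stood apart (-0.27, adjusted p = 0.0484), and Chka without those and anti-IL-33 replicate 7 (0.21, 0.0319). Elovl6 stood at 173 CPM in anti-IL-33 replicate 7 against 8.01 to 13.3 CPM in the other 14, and at 9.86 to 14.3 CPM in isotype libraries. In that same library Acaca (567.5 CPM against 128 to 190 CPM in the other 14), Acly (667 against 291 to 397 CPM) and Acss2 (91.2 against 16.3 to 31.03 CPM) were also the highest of the group, and Scd2 (547 CPM) was the lowest. Its summed fat cell markers reached 2204 CPM, against a group median of 138 CPM and a range of 117 to 175 CPM in isotype libraries. Ucp1 was at 0 in at least 1 library of every group, and in every saline library.

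**Figure D4:**
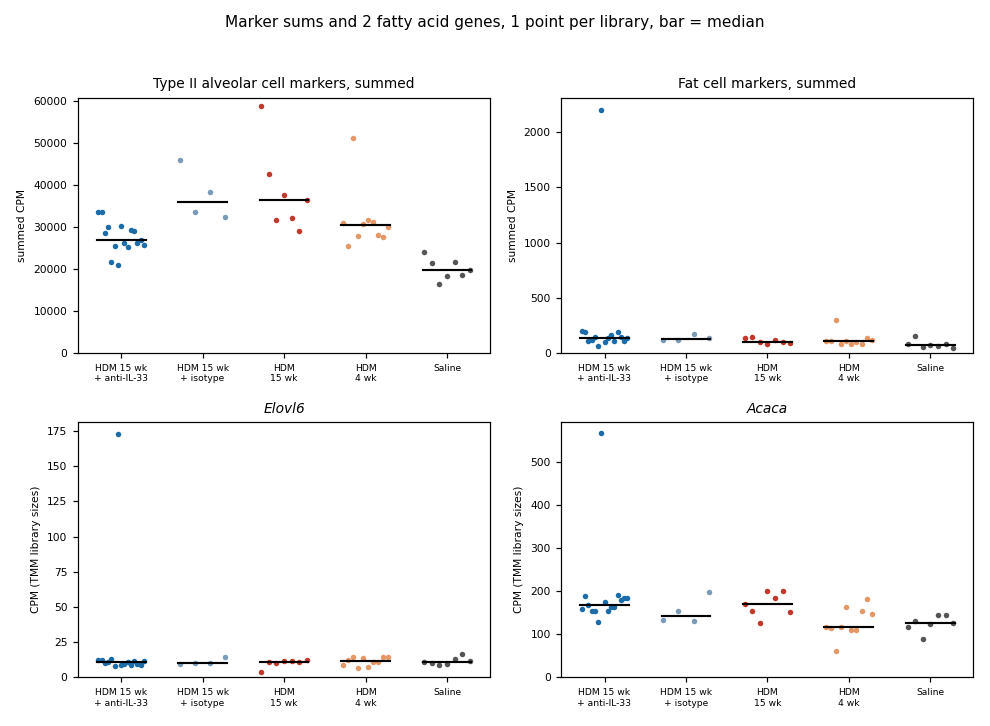
Summed CPM of 11 type II alveolar markers and 11 fat cell markers, and CPM of Elovl6 and Acaca, in each library by group from anti-IL-33 to saline, with medians as bars. Anti-IL-33 replicate 7 stands alone in fat cell markers (2204), Elovl6 (173) and Acaca (567.5), and the highest type II sums are 15-week HDM replicate 1 (58768) and 4-week HDM replicate 3 (51211).

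Of the type II markers 2 of 11 fell with anti-IL-33 against the isotype and none rose (18.2%), where 6.71% of all tested genes were called. Sftpd averaged 1461 ± 542 CPM (SD, n = 15) in anti-IL-33 libraries and 2390 ± 390 CPM (SD, n = 4) in isotype libraries (log2 -0.66 ± 0.21, edgeR adjusted p = 0.0495), and Sftpc just missed the threshold (-0.54 ± 0.18, 0.0522). Without anti-IL-33 replicate 7 the call of Sftpd was lost (-0.62, adjusted p = 0.0642) and 1 of the 11 fell, and without 15-week HDM replicate 1 there were 4, Sftpc among them (-0.57, 0.0210). Their summed level had a median of 26946 CPM against 35983 CPM. Of 8 fibroblast markers 3 rose and 1 fell (50%), and 2 of 8 type I and 2 of 8 club and goblet cell markers rose (25% each). In the surrounding lists 2 rose and 2 fell of 27 glycerolipid genes (14.8%), with Lpcat3 at -0.47 ± 0.14. In the storage and efflux list 1 of 15 rose and 1 fell (13.3%), with Cyp27a1 at 0.53 ± 0.14 and Npc2 at -0.63 ± 0.16. In the further fatty acid list 1 of 20 fell (5%), Hacd1, a dehydratase of chain elongation, at -0.60 ± 0.15. No gene of the further cholesterol, NADPH and oxidation lists was called.

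Against 15 weeks of HDM without antibody, more of the 31 genes were called than against the isotype, as were more of all tested genes. The isotype group has 4 libraries and this HDM group 7, and the part of group size in these counts was not tested. In anti-IL-33 lungs Fasn, Srebf1, Me1, Dhcr7, Elovl1, Fads2 and Fdps were lower, and Acss2 was higher. Of the 31 genes 2 rose and 9 fell (35.5%), where 35.8% of all tested genes were called, 15.9% higher and 19.9% lower, so the share was close to that of all genes. The median log2 fold change was -0.10 over the 31 genes and 0.00 over all tested genes. The labels give these HDM lungs no antibody, so injection of an antibody and IL-33 blockade cannot be told apart here.

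Fasn ranged from 757 to 2059 CPM with a median of 1525 CPM in anti-IL-33 libraries, against 1499 to 6726 CPM with a median of 1671 CPM in 15-week HDM libraries. The medians lie close and 7 of 15 anti-IL-33 libraries were below every HDM library. The log2 fold change was -0.96 ± 0.23, and -0.51 without 15-week HDM replicate 1 (edgeR adjusted p = 0.0498). For Me1, 14 of 15 anti-IL-33 libraries were below every HDM library (log2 -0.76 ± 0.16, adjusted p = 0.000795). Elovl1 ranged from 266 to 452 CPM, against 398 to 1066 CPM, with 10 of 15 below every HDM library (-0.59 ± 0.13, and -0.36 without replicate 1). Dhcr7 ranged from 21.2 to 67.5 CPM with a median of 39.6 CPM, against 49.1 to 114 CPM with a median of 54.5 CPM (-0.66 ± 0.17, and -0.47 without replicate 1). Srebf1 fell by 0.71 ± 0.16, and by 0.28 without it (adjusted p = 0.0242).

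Fads2 fell by 0.61 ± 0.13, Fdps by 0.46 ± 0.15, Scd1 by 0.42 ± 0.17 and Fads1 by 0.31 ± 0.09 on the log2 scale. Without 15-week HDM replicate 1 the calls of Fdps (-0.37, edgeR adjusted p = 0.0812), Scd1 (-0.41, 0.0920) and Chka (0.14, 0.142) were lost. Scd1 was lost without anti-IL-33 replicate 7 too (-0.42, 0.0598). Acss2 ranged from 16.3 to 91.2 CPM with a median of 22.7 CPM, against 14.7 to 21.99 CPM with a median of 16.5 CPM, and rose by 0.67 ± 0.21, or by 0.41 without replicate 7 (0.00771). Chka rose by 0.18 ± 0.07. Elovl6, at 1.004 ± 0.46, did not pass, and its mean of 21.3 CPM against 10.1 CPM rests on replicate 7, without which the anti-IL-33 mean was 10.5 CPM.

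All 11 called genes kept their sign within both number ranges, and 8 of them passed in range 1, with 8 anti-IL-33 and 5 HDM libraries. In range 2, with 7 and 2, the lowest edgeR adjusted p among the 11 was that of Me1 (0.308). Fasn had a log2 difference of -1.19 in range 1, which holds 15-week HDM replicate 1, and -0.20 in range 2, and Me1 one of -0.88 and -0.55. Of 11 type II markers 7 fell (63.6%), where 35.8% of all tested genes were called. Sftpc fell by 0.51 ± 0.15 and Sftpd by 0.77 ± 0.18. The 11 summed to a median of 26946 CPM against 36575 CPM. Without 15-week HDM replicate 1, 4 of 11 fell, and the call of Sftpc was lost (-0.35, edgeR adjusted p = 0.0617). Of 8 fibroblast markers 5 rose and 2 fell (87.5%), and of 8 type I markers 5 rose and 1 fell (75%). Of 8 club and goblet cell markers 3 rose (37.5%). Of 10 tested fat cell markers 9 rose, Adipoq by 3.16 ± 0.79 and Plin1, the droplet coat gene of fat cells, by 3.01 ± 0.75. Without anti-IL-33 replicate 7, 8 of 10 rose, with Adipoq at 1.62 ± 0.44 and Plin1 at 1.54 ± 0.40. Against the isotype none of the 10 was called, with or without that library. Without it, 2 of 10 rose and none fell in anti-IL-33 over saline lungs, with a median log2 difference of 0.09. In 15-week HDM over saline lungs 1 rose and 7 fell in that fit. The part of these cell types in the differences was not tested.

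In the surrounding lists, where 35.8% of all tested genes were called, 4 of 8 NADPH genes fell and none rose (50%), Pgd by 0.53 ± 0.14 and Pgls, the 6-phosphogluconolactonase, by 0.74 ± 0.20. Of the further cholesterol genes 2 of 14 rose and 5 fell (50%), among them Acat2 by 0.34 ± 0.09 and Scap, the SREBP escort protein, by 0.38 ± 0.12, downwards. Of the further fatty acid genes 6 of 20 rose and 5 fell (55%). Thrsp, a lipogenic gene that is also on the fat cell list, rose by 2.90 ± 0.81, or by 1.08 without anti-IL-33 replicate 7, and Slc25a1 fell by 0.62 ± 0.18. Of the storage and efflux genes (20% called) 1 of 15 rose, Cyp27a1 by 0.86 ± 0.12, and 2 fell, Npc2 by 0.65 ± 0.14 and the oxysterol receptor gene Nr1h2 by 0.29 ± 0.11. Of the glycerolipid genes 5 of 27 rose and 6 fell (40.7%), Lpcat3 by 0.71 ± 0.11.

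**Figure D5:**
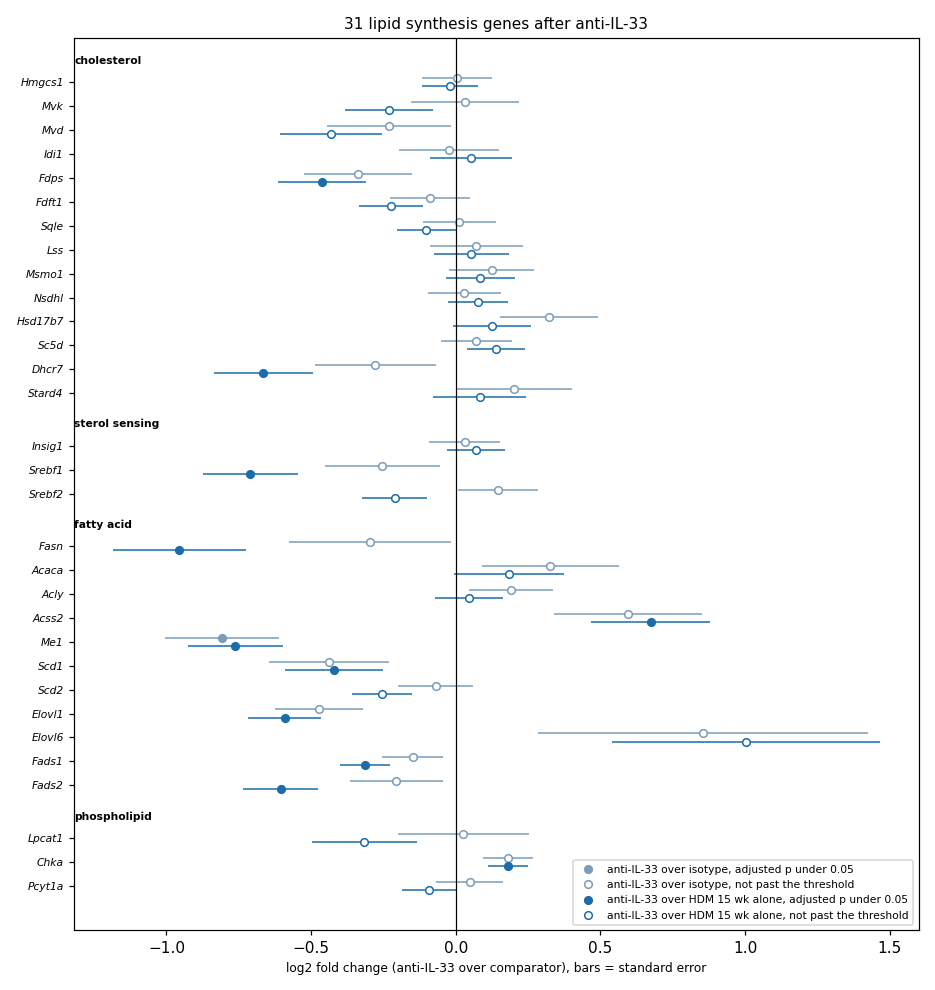
Log2 fold change of the 31 genes in anti-IL-33 lungs over isotype lungs (upper point of each row) and over 15-week HDM lungs without antibody (lower point), by branch, with SE as bars and filled points for adjusted p under 0.05. Me1 is filled in both (-0.81 and -0.76), Fasn (-0.30 and -0.96) and Srebf1 (-0.25 and -0.71) are filled only in the comparison with 15-week HDM, at -0.51 and -0.28 there without replicate 1 of that group, and Elovl6, with 1 anti-IL-33 library at 173 CPM, has the widest bars.

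Isotype libraries were also set against 15-week HDM libraries without antibody, since these differ by the control antibody alone in the labels. By edgeR none of the 31 genes passed, and 0% of all tested genes did. At an unadjusted p under 0.05 there were 3 of the 31 genes and 933 of 15598, limma-voom called none, and DESeq2 called none of the 31 genes and 8 of all genes. Those 3 were Srebf2 (log2 -0.36 ± 0.15), Fads2 (-0.40 ± 0.18) and Fasn (-0.66 ± 0.32). For Fasn the isotype values of 1293 to 2021 CPM overlap the 15-week HDM range, whose replicate 1 is the highest. Me1 averaged 311 ± 59.1 CPM (SD, n = 4) in isotype libraries and 302 ± 66.2 CPM (SD, n = 7) in 15-week HDM libraries, and Scd1 averaged 9894 ± 2991 and 9866 ± 2058 CPM.

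Anti-IL-33 lungs still differed from saline lungs in much of the pathway. Of the 31 genes 14 rose and 1 fell (48.4%), where 38.6% of all tested genes were called, 20% higher and 18.5% lower. The median log2 fold change was 0.31 over the 31 genes and 0.00 over all tested genes. By branch 7 of 14 cholesterol genes rose, 6 of 11 fatty acid genes rose and 1 fell, 1 of 3 phosphatidylcholine genes rose and none of the 3 sterol sensing genes passed.

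Scd1 ranged from 4302 to 10955 CPM in anti-IL-33 libraries, against 1662 to 3750 CPM in saline libraries, without overlap (log2 1.73 ± 0.19, edgeR adjusted p = 4.11e-09). Dhcr7 ranged from 21.2 to 67.5 CPM, against 15.2 to 21.2 CPM, with the lowest anti-IL-33 library just above the highest saline library (1.27 ± 0.19). Mvd (1.27 ± 0.19), Fdps (0.77 ± 0.16) and Lpcat1 (0.59 ± 0.19) did not overlap either, which makes 5 of the 31 genes, where 5.08% of all tested genes lay wholly above saline and 4.78% wholly below. Fasn rose by 1.397 ± 0.25 and Me1 by 1.02 ± 0.18, and Elovl1, Sqle, Msmo1, Nsdhl, Fdft1, Acaca and Acly rose by 0.34 to 0.65 on the log2 scale. Acss2 fell by 0.52 ± 0.20, with 14 of 15 libraries below every saline library and replicate 7 above them.

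Without 15-week HDM replicate 1, a library in neither group, Hmgcs1 (0.23, edgeR adjusted p = 0.0280), Hsd17b7 (0.31, 0.0490) and Srebf1 (0.24, 0.0300) passed too. All 15 called genes kept their sign in both number ranges. In range 1, which has 2 saline libraries, Scd1 was the gene that passed (1.91, adjusted p = 0.00604), and in range 2, which has 5, 14 of the 15 passed. Of the type II markers 7 of 11 rose (63.6%), where 38.6% of all tested genes were called, and Sftpc did not pass (0.27 ± 0.15). All 8 dividing cell markers (100%) and 6 of 8 monocyte and interstitial macrophage markers (75%) rose. Of 8 type I markers 7 fell (87.5%), and of 8 fibroblast markers 5 fell and 2 rose (87.5%). Of 8 club and goblet cell markers 2 rose and 3 fell (62.5%). The part of these cell types was not tested. Over the 5 groups, Mvk, Idi1, Lss, Hsd17b7, Sc5d, Stard4, Insig1, Elovl6 and Pcyt1a passed in none of the 7 comparisons.

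The order of the group medians of summed branch levels was the same at its low end in the cholesterol and fatty acid branches, with saline lowest. The 14 cholesterol genes summed to a median of 722 CPM in anti-IL-33, 741 CPM in isotype, 797 CPM in 15-week HDM, 728 CPM in 4-week HDM and 560 CPM in saline libraries. The 4 HDM groups overlap one another. The highest saline library (608 CPM) lies inside the anti-IL-33 range, which starts at 585 CPM, and inside the 4-week HDM range, which starts at 499 CPM. The 11 fatty acid genes summed to a median of 12086 CPM in anti-IL-33, 13513 CPM in isotype, 13531 CPM in 15-week HDM, 7001 CPM in 4-week HDM and 4224 CPM in saline libraries. Scd1 had the highest median of the 11 in every group, from 1914 CPM in saline to 9590 CPM in 15-week HDM libraries. In this branch the 4-week HDM range, which starts at 4960 CPM, overlaps the saline range, which ends at 6507 CPM. The 3 phosphatidylcholine genes had medians of 443, 431, 481, 339 and 358 CPM in the same order of groups, where the 4-week and anti-IL-33 ranges overlap the saline range.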

How the data were processed

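Lung RNA was sequenced as strand-specific mRNA libraries, per the labels' protocols, and the genome build was GRCm38, per the submitters' processing notes. The deposited values are whole-number read counts for each Entrez ID, not normalized. An aligner, a counting tool, an annotation and a strand setting were not given in the sources used here. Reads of related or overlapping genes may therefore be split unevenly. Of 24475 IDs, 24375 were matched to a symbol, and the 100 unmatched IDs, with 2.62% of all counts, stayed in the library totals. Total counts per library were 5126491 to 12599467 with anti-IL-33, 8354316 to 10243469 with the isotype, 4909177 to 11507108 at 15 weeks, 4795214 to 11959383 at 4 weeks and 7090950 to 12414078 in saline.

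All 43 libraries entered 1 quasi-likelihood fit in edgeR 4.0.16 (R 4.3.3) with TMM library sizes, filterByExpr and robust spread, with group and number range as terms. The 7 comparisons are contrasts in that fit, with Benjamini-Hochberg adjustment over 15598 genes and a threshold of 0.05. CPM use TMM library sizes. Alternatives used limma 3.58.1, DESeq2 1.42.0, other size factors and filters, single number ranges, fits of just the groups at issue, counts corrected for GC content and transcript length, and left-out libraries. Figures and tables used Python 3.11.15, pandas 2.3.3, NumPy 2.4.6 and matplotlib 3.10.9.

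The members and all lists were chosen with earlier results of these data known. All 31 members are reported. Of each other list at most the 4 genes past the threshold with the smallest p in a comparison are named, plus Sftpc, Sftpd, Adipoq and Plin1. Ucp1, and genes named for 1 library, were chosen after their values were seen. Promoter windows come from RefSeq (GRCm38.p6), and gene positions from the GRCm38.p6 annotation. A planned comparison of related proteins was not made, since protein sequences were not used here.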

Additional observations from a re-analysis of the deposited data

Results flagged for a closer look

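Of 124 sets of values (31 genes in the 4 groups of 10 or fewer libraries), 25 had a highest or lowest library far from the rest of its group by Dixon's 95% criterion, and chance gives about 1 in 20. In 15-week HDM replicate 1 the level was far above the other libraries for Mvk (33.7 CPM), Mvd (58.4 CPM), Dhcr7 (114 CPM), Srebf1 (438 CPM), Srebf2 (314 CPM), Fasn (6726 CPM), Elovl1 (1066 CPM) and Lpcat1 (560 CPM), and far below them for Sc5d (20.4 CPM) and Elovl6 (3.63 CPM). In 4-week HDM replicate 3 Mvk (30.3 CPM) and Fdft1 (79.9 CPM) were far above and Lpcat1 (34.99 CPM) far below the group. In saline replicate 3 Hmgcs1 (97.8 CPM), Idi1 (53.2 CPM), Msmo1 (30.9 CPM) and Lpcat1 (94.9 CPM) were far below the group. No fit left out saline replicate 3 alone, so its part in the contrasts with saline was not tested.

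Of the isotype libraries, replicate 1 was far above the other 3 for Mvk (17.7 CPM) and Fdps (137 CPM), replicate 3 far below for Acly (287 CPM) and far above for Chka (58.5 CPM), and replicate 4 far above for Elovl6 (14.3 CPM). The remaining single libraries were 15-week HDM replicate 4, highest for Me1 (450 CPM), 15-week HDM replicate 6, highest for Acss2 (21.99 CPM), and 4-week HDM replicate 6, lowest for Fads1 (100.04 CPM).

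For 11 genes 15-week and 4-week HDM libraries differed in the contrast of the time points in the edgeR fit, as given above. The saline libraries have no time point and cancel in it, so it does not compare effects against time-matched saline. The log2 fold change of 15 over 4 weeks was 1.80 for Fasn, 1.06 for Scd1, 0.88 for Lpcat1, 0.87 for Elovl1, 0.82 for Srebf1 and 0.65 for Fads2. It was 0.54 for Dhcr7, 0.35 for Acly, 0.35 for Scd2, 0.35 for Srebf2 and 0.30 for Fads1, and these calls were lost without 15-week HDM replicate 1.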

How the results depend on the processing

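Over 995 recomputed fold changes of called genes none changed sign, 870 kept their call and 125 lost it. The recomputed values, those within number ranges included, rest on libraries that gave the calls, so a kept sign is not separate evidence. Counts of called genes moved by more than 1.5 times as follows, and the cause was not tested. Anti-IL-33 against the isotype, with 1 call, gave 2 with upper quartile size factors, with a mean CPM of at least 1, without the range term, by limma-voom and by DESeq2, 3 with only both groups, 0 in number range 1 and 0 in range 2, and 11 against the mean of isotype and 15-week HDM. It gave 3 without 15-week HDM replicate 1 and 4-week HDM replicate 3, also with anti-IL-33 replicate 7 left out. Leaving out single libraries gave 0 to 2. Anti-IL-33 against 15-week HDM, with 11 calls, gave 0 in range 2 (8 to 10 without single libraries). Anti-IL-33 against saline, with 15, gave 1 in range 1 (15 to 18). At 15 against 4 weeks, with 11, there were 6 with upper quartile factors, 6 in range 1, 1 in range 2, 4 with only both groups and 7 without the pair that stood apart (8 to 14). HDM against saline gave 9 in range 1 at 15 weeks, where 18 were called (18 to 20), and 5 at 4 weeks, where 10 were called (10 to 14). Isotype against 15-week HDM gave 0 in every setting. Ranges alone hold few libraries, down to 1 isotype library, which is then assumed to vary like the other groups. The fits without anti-IL-33 replicate 7 or 15-week HDM replicate 1 were chosen after seeing the data. No paired analysis was possible because replicate numbers were given in accession order and pair no samples.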
